A study of Mus musculus with 8 samples.

Results

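A set of 10 transcription factor genes that act in activated and tissue-resident regulatory T cells (Tregs) was followed across spleen and injured muscle of young and aged mice: Batf, Irf4, Prdm1, Maf, Rora, Gata3, Nfil3, Id2, Bcl6 and Ikzf3. They were chosen by gene symbol and by no threshold on the measurements, but with earlier results of these data known. Shares of the 10 set beside those of all genes are therefore no independent evidence. All 10 of 10 were found among the 38406 gene symbols of the count table and passed the filter on low counts, which left 14772 genes. The cells were Tregs sorted from male mice of C57BL/6 background, with no engineered allele named, and per the labels leg muscles (tibialis anterior, quadriceps and gastrocnemius) had been injured with cardiotoxin, a snake venom component that kills muscle fibres, at 0.9 µg per injected muscle. Organs were taken 4 days later, and 1500 cells per library were sorted. The 4 groups were spleen at 2 months (young spleen), spleen at more than 6 months (aged spleen), muscle at 2 months (young muscle) and muscle at more than 6 months (aged muscle), with 2 libraries in each. Uninjured muscle was not analysed here. The libraries of a group are described as biological duplicates, without saying whether animals were pooled or which markers defined the sort, so each test rests on the spread between 2 preparations, which may be partly technical.

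Tregs are CD4 T cells that restrain other immune cells and depend on the factor Foxp3. When they are activated and settle in tissues they switch on a second layer of factors. Batf, a leucine zipper protein that pairs with Jun proteins, and Irf4, an interferon regulatory factor activated downstream of the antigen receptor, bind DNA together at composite sites. Prdm1 encodes Blimp-1, a repressor that promotes effector differentiation and opposes Bcl6 and Bach2, which are repressors of that step. Maf, Gata3 and Rora are lineage factors that help to define Tregs at barrier sites and in tissues, Nfil3 is a leucine zipper repressor of the circadian and cytokine response, Id2 blocks the DNA binding of E proteins, and Ikzf3 encodes Aiolos of the Ikaros family.

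The libraries held 1969982 to 4008622 counts, and the lowest count of any of the 10 genes in any library was 41 reads, for Prdm1. Levels are CPM, a gene's reads as a share of the library's, with libraries scaled by the trimmed mean of M-values (TMM). All 8 genes of a list that defines Tregs (Foxp3, Il2ra, Ikzf2, Ctla4, Cd3d, Cd3e, Cd3g and Cd4) had reads in every library, Foxp3 at 15.4 to 41.5 CPM. Young muscle replicate 1 stood apart. The summed level of 15 myeloid markers was 918 CPM there against 291 CPM in young muscle replicate 2, 255 and 259 CPM in aged muscle and 265 to 474 CPM in spleen, and 14 muscle and stromal markers summed to 563 CPM against 159 to 361 CPM in the other 7 libraries, where most of the sum in spleen came from Pecam1, which T cells can also express. The complement gene C1qa, made by macrophages, had 275 reads in that library and 0 in young muscle replicate 2 and aged muscle replicate 1. Aged muscle replicate 2 had 72 reads of the fibroblast gene Dcn against 0 to 8 in the other 7 libraries. It had 67 of Col3a1 and 31 of Pdgfra against 2 and 4 in aged muscle replicate 1. Young muscle replicate 1 had more of both, 274 and 57. Markers of B and plasma cells summed to 87.2 to 158 CPM and those of CD8 T, natural killer and innate lymphoid cells to 18.6 to 36.5 CPM. Numbers of genes called in comparisons with muscle are therefore also given without these libraries. Bulk libraries of sorted cells cannot tell fewer cells of one type from less RNA per cell.

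**Figure D1:**
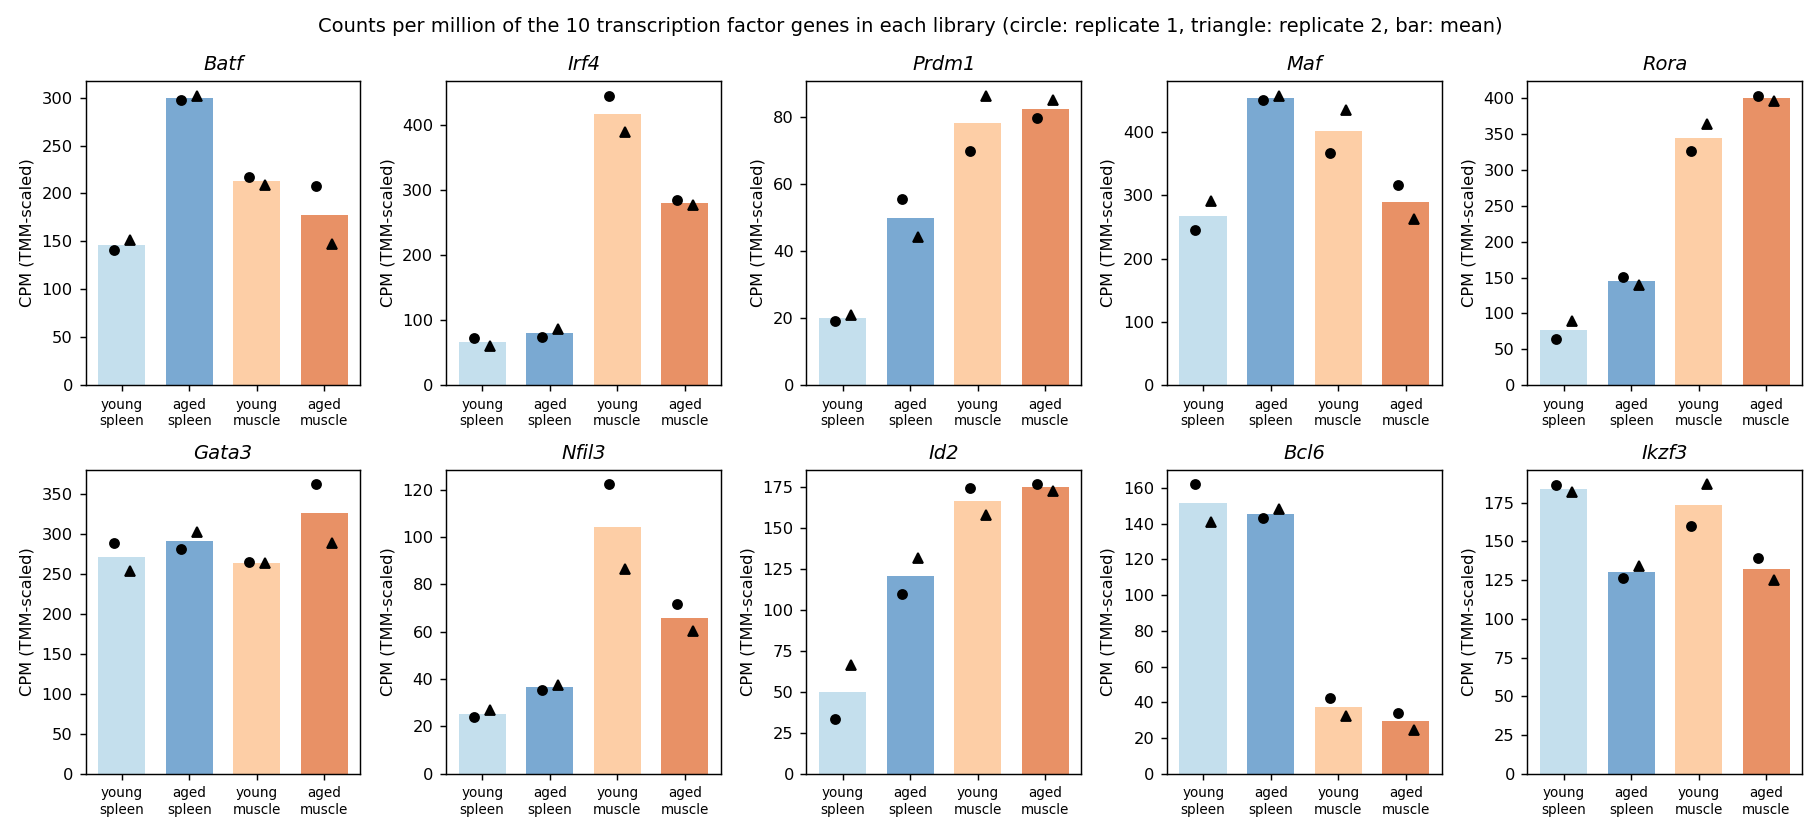
TMM-scaled CPM (vertical axis, from 0) of each of the 10 genes in spleen and muscle of young and aged mice. Points are the 2 libraries of a group and bars their mean. Irf4, Rora, Nfil3, Prdm1 and Id2 stood higher in all 4 muscle libraries than in all 4 spleen libraries and Bcl6 lower, while Batf and Maf were highest in aged spleen.

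The comparison of muscle with spleen in young mice asked which of these factors differ between Tregs of an injured tissue and those of a lymphoid organ. Of the 10 genes 7 were higher and 1 lower in muscle (edgeR quasi-likelihood test, Benjamini-Hochberg adjusted p under 0.05), in a comparison in which 11.4% of all tested genes were called higher and 10.9% lower. The median log2 fold change of the 10 was 1.16, beside 0.067 over all tested genes. In aged mice 4 were higher and 3 lower, against 9.57% and 9.27% of all genes, and the median was 0.35 beside 0.030. These comparisons share no library, but each gene's spread was estimated over all 8. Both comparisons are set out gene by gene below, by role.

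Irf4 had the largest difference of the 10 between the tissues of young mice. Its level was 72.9 and 60.1 CPM in young spleen, 73.3 and 86.9 CPM in aged spleen, 445 and 389 CPM in young muscle, and 284 and 276 CPM in aged muscle. Every muscle library was above every spleen library, and young muscle was above aged muscle. The log2 fold change of muscle over spleen was 2.65 ± 0.18 (SE) in young and 1.81 ± 0.17 in aged mice (edgeR adjusted p = 1.1e-07 and 6.4e-06), and both calls held with each library left out in turn.

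Batf did not follow Irf4. It was read at 141 and 151 CPM in young spleen, 297 and 302 CPM in aged spleen, 217 and 209 CPM in young muscle, and 208 and 148 CPM in aged muscle. The lowest groups, young spleen and aged muscle, overlapped, and aged spleen lay above the other 3 groups without overlap. Muscle was higher than spleen in young mice (log2 fold change 0.55 ± 0.18, edgeR adjusted p = 0.039) and lower in aged mice (-0.75 ± 0.17, edgeR adjusted p = 0.0081). The young call ended without any 1 spleen library or either young muscle library (0.50 to 0.60) and with no filter (0.52), the aged call without either aged spleen library or aged muscle replicate 2 (-0.76, -0.74 and -0.53).

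Maf, which supports Il10 expression in several T cell types, had the same order of groups as Batf. Young spleen held 244 and 290.2 CPM, aged spleen 450.1 and 458 CPM, young muscle 367 and 435 CPM, and aged muscle 317 and 262 CPM. Here too aged spleen was highest and young spleen and aged muscle overlapped. Muscle was higher by 0.58 ± 0.16 on the log2 scale in young mice and had a log2 fold change of -0.65 ± 0.16 in aged mice (edgeR adjusted p = 0.019 and 0.012). The young call ended without either young spleen library or young muscle replicate 2 (0.47, 0.71 and 0.46), the aged one without either aged spleen library or aged muscle replicate 2 (-0.66, -0.64 and -0.52). An antisense gene, Gm15655, overlaps Maf, and since the strand setting of the counting is not given in the sources used here, their reads cannot be told apart with confidence. Rora and Bcl6 also overlap annotated genes on the other strand.

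Rora, which encodes the nuclear receptor ROR alpha, increased in mean level in the order young spleen (64.0 and 88.7 CPM), aged spleen (151 and 139 CPM), young muscle (327 and 364 CPM) and aged muscle (404 and 396 CPM), and no neighbouring groups in that order overlapped. The difference of young from aged muscle, the last step, was not called. Muscle over spleen was 2.17 ± 0.18 on the log2 scale in young and 1.46 ± 0.17 in aged mice (edgeR adjusted p = 7.5e-07 and 4.0e-05), and both calls held with each library left out.

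Nfil3 was at 23.8 and 26.7 CPM in young spleen, 35.6 and 37.3 CPM in aged spleen, 122 and 86.4 CPM in young muscle, and 71.5 and 60.5 CPM in aged muscle. The groups did not overlap, and young muscle was highest. Muscle over spleen was 2.04 ± 0.25 in young and 0.86 ± 0.24 in aged mice on the log2 scale (edgeR adjusted p = 4.1e-05 and 0.023). The aged call ended without either aged spleen library (0.82 and 0.89) or without aged muscle replicate 1 (0.75).

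Id2 was at 33.2 and 66.3 CPM in young spleen, 109.8 and 132 CPM in aged spleen, 175 and 158 CPM in young muscle, and 177 and 173 CPM in aged muscle. Young and aged muscle overlapped, and both were above the spleen groups. The difference of muscle from spleen was 1.73 ± 0.25 on the log2 scale in young mice (edgeR adjusted p = 0.00028). It was 1.33 without young spleen replicate 1 and 2.33 without replicate 2, 2 libraries whose levels lay far apart, and the call held in both. In aged mice it was 0.53 ± 0.24 and was not called (edgeR adjusted p = 0.13), although fitting only the groups compared called it (0.54).

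Prdm1 and Bcl6, the pair of opposing repressors, lay on opposite sides of the tissue comparison. Prdm1 was at 19.2 and 20.9 CPM in young spleen, 55.4 and 44.1 CPM in aged spleen, 70.0 and 86.4 CPM in young muscle, and 79.7 and 85.0 CPM in aged muscle. Bcl6 was at 162 and 141 CPM in young spleen, 143 and 148 CPM in aged spleen, 42.6 and 32.5 CPM in young muscle, and 34.3 and 24.5 CPM in aged muscle. For each gene all muscle libraries lay on one side of all spleen libraries.

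Bcl6 fell from spleen to muscle by 2.00 ± 0.22 on the log2 scale in young mice, and its log2 fold change was -2.30 ± 0.22 in aged mice (edgeR adjusted p = 1.6e-05 and 8.3e-06), calls that held with each library left out. For Prdm1 muscle over spleen was 1.96 ± 0.25 in young mice (edgeR adjusted p = 5.4e-05), a call that held with each library left out. In aged mice it was 0.72 ± 0.23 (edgeR adjusted p = 0.038), and that call ended without any 1 library of spleen or of aged muscle (0.57 to 0.90), with no filter (0.66) and by DESeq2 (0.76).

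Gata3, the factor of type 2 helper cells that is also active in tissue Tregs, and Ikzf3 were not called in either tissue comparison. Gata3 was at 289 and 253 CPM in young spleen, 281 and 303 CPM in aged spleen, 265 and 264 CPM in young muscle, and 363 and 289.7 CPM in aged muscle. Neighbouring groups overlapped throughout. Its muscle over spleen values were -0.036 ± 0.16 and 0.16 ± 0.16 on the log2 scale (edgeR adjusted p = 0.89 and 0.49). The antisense gene Gm13256, with 143 to 351 reads per library, overlaps Gata3, with the same limit as for Maf. Ikzf3 was at 186 and 182 CPM in young spleen, 127 and 134 CPM in aged spleen, 160.1 and 187 CPM in young muscle, and 139 and 125 CPM in aged muscle. The 2 young groups overlapped, as did the 2 aged groups, and the tissue differences were -0.085 ± 0.17 and 0.019 ± 0.17 (edgeR adjusted p = 0.75 and 0.94).

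Young muscle replicate 1 was the library with the high myeloid and stromal marker levels. Without it the call of Batf (0.52) was the only tissue call among the 10 genes lost in young mice. Calls over all genes did not fall in that fit. Young muscle replicate 2 was not free of such markers. Of 13 tested myeloid markers 8 had both young muscle libraries above both young spleen libraries, and for 0 both were below. In young mice 4 of the 13 were called higher in muscle and 0 lower, against 11.4% and 10.9% of all tested genes. The part of these other cells' RNA in the tissue differences was not tested beyond leaving out replicate 1. Without aged muscle replicate 2, the library with the high Dcn reads, the calls of Batf, Maf and Prdm1 in aged mice were lost. Calls over all genes fell as well. In aged mice Irf4, Rora and Bcl6 were called with every library left out. The myeloid sum in aged muscle came largely from Ctss, at 162 and 139 CPM there and 200 to 270 CPM in spleen. Of 13 tested myeloid markers 3, Csf1r among them, had both aged muscle libraries above both aged spleen libraries. For 7 both were below. By the edgeR test 1 was called higher and 2 lower in aged muscle, against 9.57% and 9.27% of all tested genes. The share of all genes with libraries separated in this way between the tissues is not given here.

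**Figure D2:**
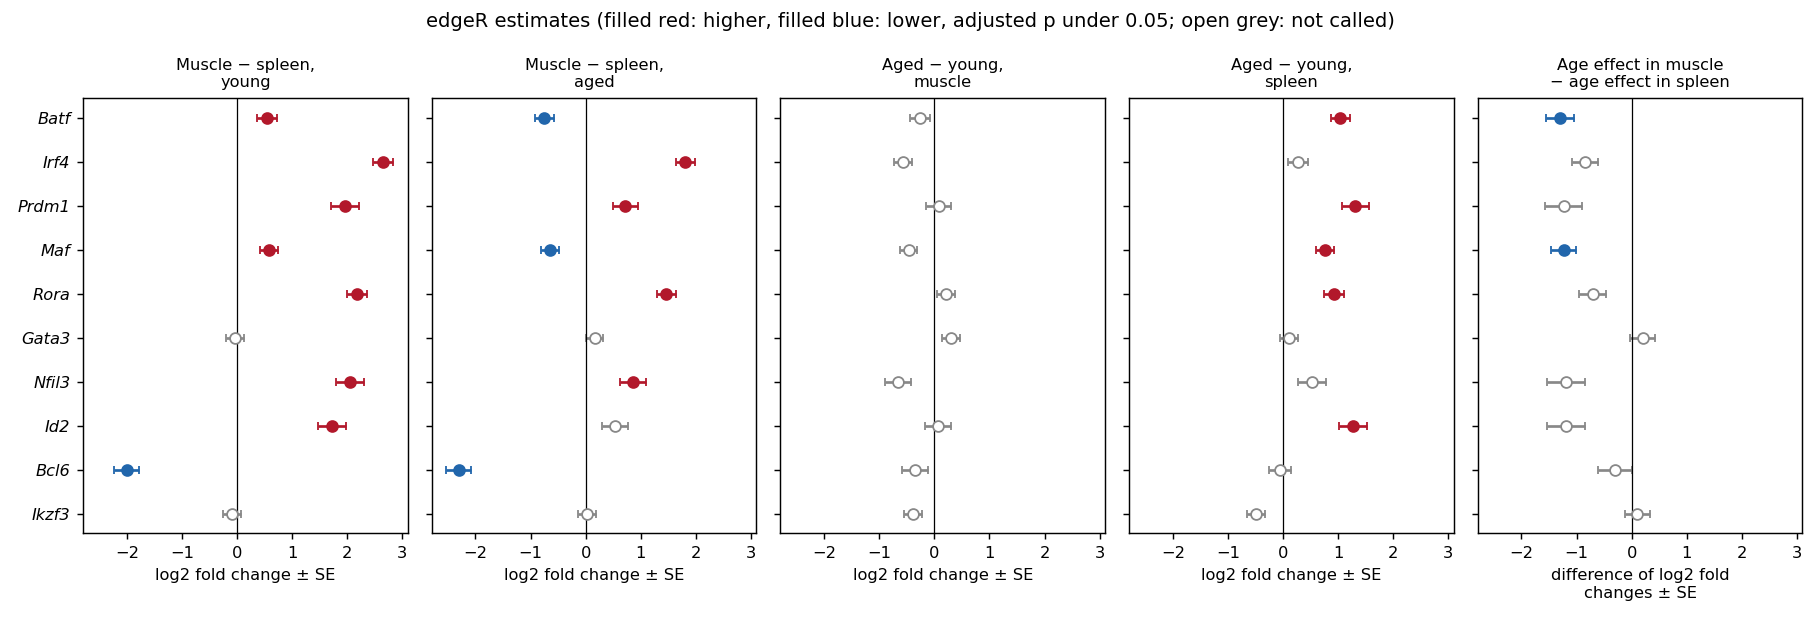
Log2 fold changes (horizontal axis, with SE as bars) of the 10 genes in the 5 comparisons, from 1 edgeR model over 8 libraries. Filled points passed an adjusted p of 0.05, red for higher and blue for lower, and open points did not. Batf and Maf changed sides between the young and aged tissue comparisons, and no point was filled for age in muscle.

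The balance of opposing factors was also read within each library, as a ratio of read counts, which needs no scaling between libraries. A ratio carries the lengths and amplification of both transcripts, so only its change between libraries can be read, and it is given as a description with no test. Prdm1 reads per Bcl6 read numbered 0.118 and 0.148 for the 2 young spleen libraries, 0.387 and 0.297 for aged spleen, 1.64 and 2.66 for young muscle, and 2.33 and 3.47 for aged muscle. The spleen groups were apart from each other and from muscle, and the muscle groups overlapped.

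Prdm1 reads per read of Bach2 numbered 0.0308 and 0.0357 for young spleen and 0.280 and 0.221 for aged spleen. Muscle gave 1.5 and 1.01 at the young age and 1.30 and 1.08 at the older. Id2 reads per read of Id3, its relative that is typical of less differentiated T cells, numbered 0.301 and 0.648 for young spleen and 1.14 and 1.57 for aged spleen. Young muscle gave 19.7 and 26.4, and aged muscle 19 and 22.7. In all 3 ratios aged spleen lay between young spleen and muscle.

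**Figure D3:**
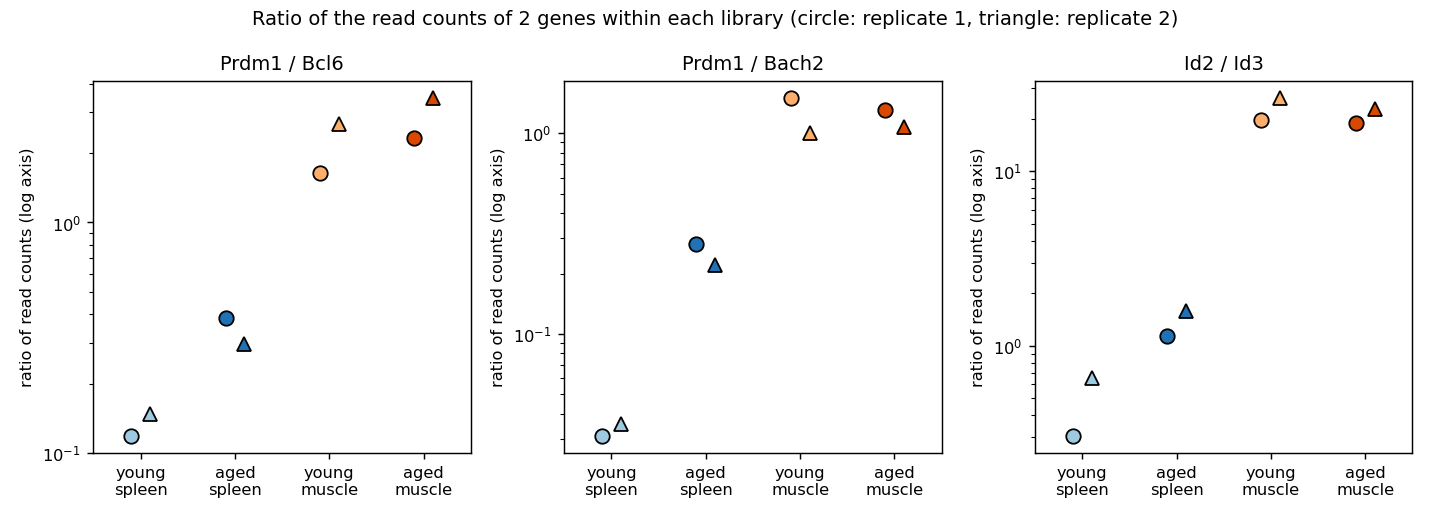
Ratio of the read counts of Prdm1 to Bcl6, Prdm1 to Bach2 and Id2 to Id3 within each library (vertical log axis), by group. Points are libraries. Aged spleen sits above young spleen and below both muscle groups in each panel, and the muscle groups overlap.

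The promoter windows of this opposing pair are shown because Prdm1 and Bcl6 moved apart between the tissues and because their proteins repress each other's programme. The windows run from 250 bases before to 50 bases after the RefSeq start (RefSeq, GRCm38.p6), 5′ to 3′ on the gene's own strand, and both genes lie on the minus strand. The Prdm1 window is chr10:44458699-44458998, inside the gene's GENCODE M21 span on chromosome 10 from 44437177 to 44528501. Bcl6 (chromosome 16, 23965052 to 23988852) has 2 listed starts, with windows chr16:23988803-23989102 and chr16:23981234-23981533. Capitals in Prdm1 mark a match to the AP-1 site TGANTCA, which Batf binds with Jun proteins, and in Bcl6 matches to the palindrome TTCNNNGAA, which BCL6 and STAT proteins can bind.
Prdm1: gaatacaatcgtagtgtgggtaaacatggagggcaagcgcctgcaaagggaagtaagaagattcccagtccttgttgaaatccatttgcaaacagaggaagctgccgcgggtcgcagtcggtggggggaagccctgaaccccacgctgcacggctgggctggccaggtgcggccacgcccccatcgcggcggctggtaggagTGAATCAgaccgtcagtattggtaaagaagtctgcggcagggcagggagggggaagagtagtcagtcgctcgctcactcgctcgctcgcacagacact
Bcl6, upstream start: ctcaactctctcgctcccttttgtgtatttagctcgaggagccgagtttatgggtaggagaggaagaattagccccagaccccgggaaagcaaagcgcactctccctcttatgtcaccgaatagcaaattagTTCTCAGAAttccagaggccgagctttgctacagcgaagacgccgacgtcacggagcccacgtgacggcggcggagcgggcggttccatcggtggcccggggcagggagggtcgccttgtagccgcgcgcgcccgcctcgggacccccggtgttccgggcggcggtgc
Bcl6, inner start: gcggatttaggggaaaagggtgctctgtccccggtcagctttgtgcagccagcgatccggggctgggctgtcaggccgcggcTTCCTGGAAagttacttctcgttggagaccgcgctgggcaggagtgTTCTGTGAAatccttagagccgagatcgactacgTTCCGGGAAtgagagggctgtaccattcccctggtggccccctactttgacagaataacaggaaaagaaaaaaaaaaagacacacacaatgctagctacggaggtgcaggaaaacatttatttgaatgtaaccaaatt

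The Prdm1 match began 48 bases before the start. The upstream Bcl6 window held 1 palindrome match, beginning 118 bases before the start, and the inner window 3, beginning 168, 122 and 88 bases before it. Windows were listed for 8 of the 10 genes (9 windows in all), Maf and Ikzf3 not being among them. Among all 32851 listed windows of 300 bases, searched on both strands, 7.81% held TGANTCA and 8.30% held TTCNNNGAA. Of the 9 windows 1 and 2 held them. The GATA core GATAA was found in the Batf window and in 25.4% of all windows. AGGTCA, the core of the ROR site and not the whole site, was found in the Nfil3 window and in 16.3%. No window of the 9 held the interferon response element, in 3.44% of all windows, or the Blimp-1 core AGTGAAA, in 4.32%. No marked matches overlapped each other. These are matches of letters in a short window, and nothing in these data measured binding there.

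The comparison of aged with young spleen asked whether these factors change with age outside muscle. Batf, Prdm1, Maf, Rora and Id2 rose, 5 of the 10, while 2.08% of all tested genes were called higher, and none of the 10 was called lower, against 2.17% of all genes. At an unadjusted p under 0.05 there were 6 of the 10, beside 16.7% of all tested genes. The median of the 10 was 0.64 on the log2 scale, beside 0.046 over all tested genes. Prdm1 rose by 1.31 ± 0.25, Id2 by 1.27 ± 0.25, Batf by 1.04 ± 0.18, Rora by 0.92 ± 0.18 and Maf by 0.76 ± 0.16 (edgeR adjusted p = 0.0067, 0.011, 0.0030, 0.0077 and 0.014). For these 5, and for Irf4 and Nfil3, both aged libraries were above both young ones, and for Ikzf3 below. Such separation of 2 libraries from 2 held upward for 28.8% and downward for 24.0% of all tested genes. Within young spleen Id2 varied most, with replicate 2 at 66.3 CPM and replicate 1 at 33.2 CPM. Irf4 differed by 0.27 ± 0.18, Nfil3 by 0.52 ± 0.25, Gata3 by 0.11 ± 0.16, Bcl6 by -0.056 ± 0.20 and Ikzf3 by -0.50 ± 0.16, and none of these passed (edgeR adjusted p = 0.49, 0.32, 0.81, 0.93 and 0.12). With only the groups compared Ikzf3 was called lower (-0.49).

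These 5 calls depended on having both libraries of each spleen group. With replicate 1 of either young or aged spleen left out none of the 10 was called, without young spleen replicate 2 the calls of Rora and Id2 held, and without aged spleen replicate 2 that of Prdm1 held. Calls over all genes fell likewise, from 627 to between 141 and 169. With 1 spleen library left out the log2 fold changes stayed positive, at 0.99 to 1.09 for Batf, 1.13 to 1.46 for Prdm1, 0.65 to 0.89 for Maf, 0.71 to 1.18 for Rora and 0.87 to 1.86 for Id2. The highest value of Rora and of Id2 came without young spleen replicate 2. In such a fit the lone library of a group is assumed to vary like the other groups. Beside these changes, marker sums of other cells were also higher in aged than in young spleen. Myeloid markers summed to 431 and 474 CPM against 363 and 265 CPM, erythroid and platelet markers to 115 and 156 CPM against 63.1 and 22.9 CPM, and B and plasma cell markers to 123 and 158 CPM against 104 and 87.2 CPM. Single myeloid markers differed unequally. The neutrophil gene S100a8 had 17.9 and 55.3 CPM in aged against 19.6 and 5.04 CPM in young spleen, and S100a9 14.7 and 49.5 against 22.0 and 4.26. Cybb had 76.5 and 68.9 CPM against 33.2 and 20.1, and C1qa 4.17 and 6.45 against 4.21 and 3.49. Csf1r was lower in aged spleen, at 6.13 and 12.2 CPM against 17.3 and 13.9. Of 13 tested myeloid markers 1 was called higher and 0 lower. Both aged libraries were above both young ones for 6 and below for 1. The part of these other cells in the result was not tested.

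**Figure D4:**
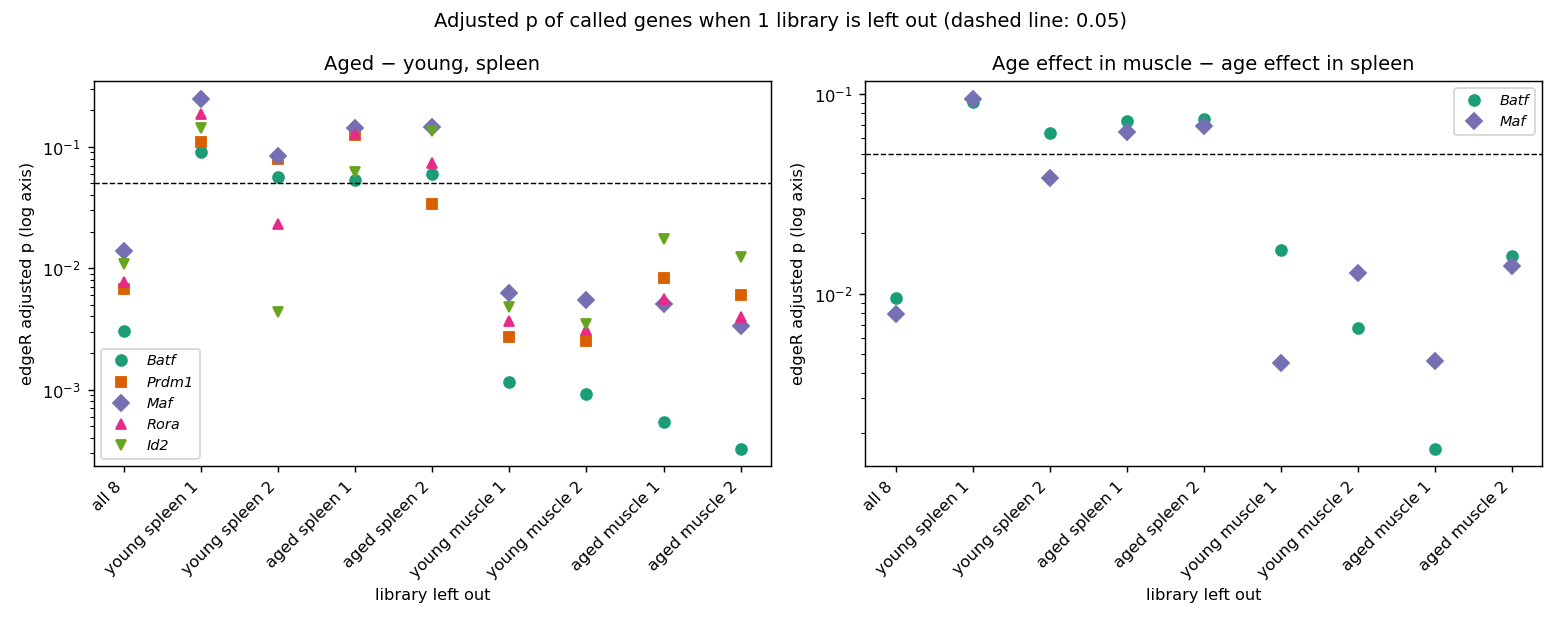
Adjusted p of edgeR (vertical log axis) for the genes called for age in spleen (left) and for the difference of age effects (right), with all 8 libraries and with each library left out (horizontal axis). The dashed line is 0.05. Most points rise above the line where a spleen library is left out and stay below it where a muscle library is left out.

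The same age comparison in muscle asked whether these factors change in Tregs sorted from the injured tissue. By edgeR none of the 10 passed, while 1.14% of all genes were called higher and 0.880% lower. At an unadjusted p under 0.05 there were 4 of the 10, beside 15.3% of all tested genes. DESeq2 called 1, Irf4, as lower (-0.59), and 3.36% of the genes it tested. The libraries of young and aged muscle did not overlap for 7 of the 10, 2 higher and 5 lower in aged muscle, which held for 21.2% and 20.3% of all tested genes. Irf4 differed by -0.58 ± 0.16, Nfil3 by -0.66 ± 0.23, Maf by -0.47 ± 0.16 and Ikzf3 by -0.39 ± 0.17 on the log2 scale (edgeR adjusted p = 0.092, 0.18, 0.17 and 0.27). Without young muscle replicate 2, which leaves the library with the high myeloid markers as the only young one, Irf4 and Nfil3 were called (-0.67 and -0.89). Without replicate 1, or without aged muscle replicate 2, none was, and the difference of age effects, below, then kept its 2 calls. Batf differed by -0.26 ± 0.18, Bcl6 by -0.35 ± 0.24, Prdm1 by 0.076 ± 0.23, Id2 by 0.071 ± 0.24, Rora by 0.21 ± 0.17 and Gata3 by 0.30 ± 0.16 (edgeR adjusted p = 0.51, 0.50, 0.90, 0.92, 0.58 and 0.38).

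Whether the age effect differed between the tissues was asked with the contrast of muscle's age change less spleen's. It was lower for 2 of the 10 genes, Batf at -1.30 ± 0.25 and Maf at -1.23 ± 0.23 (edgeR adjusted p = 0.0095 and 0.0079), and higher for none, against 1.17% and 1.35% of all genes. In these 2 genes aged libraries were higher than young ones in spleen and lower in muscle, although the muscle difference alone was not called. The libraries of Irf4 and Nfil3 had the same directions without overlap, so the pattern is not particular to Batf and Maf. For Irf4 and Nfil3 neither age difference was called by edgeR. The call of Batf ended without any 1 spleen library (-1.35 to -1.25). That of Maf ended without either aged spleen library (-1.24 and -1.22) or young spleen replicate 1 (-1.11). Prdm1 at -1.24 ± 0.33, Id2 at -1.20 ± 0.34, Nfil3 at -1.19 ± 0.35, Irf4 at -0.84 ± 0.24 and Rora at -0.71 ± 0.24 had values on the same side that did not pass (edgeR adjusted p = 0.072, 0.10, 0.098, 0.091 and 0.18). Single alternatives called some of them: no filter Prdm1 and Id2 (-1.27 and -1.23), library-size scaling Irf4 (-0.89), and leaving out young muscle replicate 2 Nfil3 (-1.41) or young spleen replicate 2 Id2 (-1.79). The values of Gata3, Bcl6 and Ikzf3 were 0.20 ± 0.23, -0.30 ± 0.31 and 0.10 ± 0.23.

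Partners and relatives of these factors were taken as a list of 29 genes, of which 22 could be tested. In young mice 6 were higher and 11 lower in muscle, and in aged mice 3 and 7. Without young muscle replicate 1 the young counts were 5 and 9, and without aged muscle replicate 2 the aged counts were 3 and 6. Among Jun partners of Batf, Junb was higher in muscle in both ages (1.33 ± 0.14 and 1.24 ± 0.14), as was Jund (1.54 ± 0.14 and 0.71 ± 0.14, the latter not called without aged spleen replicate 1), and Jun was lower in both (-1.76 ± 0.16 and -1.37 ± 0.16). Bach2, the repressor that holds back Prdm1, was at 604 ± 25 CPM in young spleen, 199 ± 1.4 CPM in aged spleen, 66.3 ± 28 CPM in young muscle and 69.9 ± 12 CPM in aged muscle (SD, n = 2). Its log2 fold change was -1.60 ± 0.22 for age in spleen and -3.20 ± 0.24 for tissue in young mice, and the difference of its age effects was 1.69 ± 0.32 (edgeR adjusted p = 0.00073, 6.1e-07 and 0.012). Id3 was lower in muscle by -3.81 ± 0.29 and -3.40 ± 0.28 in young and aged mice. Batf3, a close relative of Batf, was under the filter on low counts, with at most 4.5 CPM in any library.

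Of the other Ikaros family genes, Ikzf1 and Ikzf4 were lower in muscle at both ages and Ikzf2 in young mice. Ikzf5 had no read in any library, and neither had Irf8 of the same list. The annotation used for counting is not given, so these zeros cannot be read as absence of expression. Ikzf1 had log2 fold changes of -1.21 ± 0.15 and -1.04 ± 0.15 for muscle over spleen in young and aged mice, and Ikzf4 -1.30 ± 0.17 and -0.51 ± 0.16. Ikzf2, which encodes Helios, had -0.52 ± 0.15 in young mice, and -0.36 ± 0.15 in aged mice, which did not pass. The young call of Ikzf2 ended without either young spleen library or young muscle replicate 1, and the aged call of Ikzf4 ended without any 1 library of spleen or of aged muscle (-0.54 to -0.47). With age in muscle 3 of the 22 rose and none fell: Maff, a small Maf protein gene, by 2.20 ± 0.22, Ikzf4 by 0.89 ± 0.17 and Ikzf2 by 0.73 ± 0.15. Without young muscle replicate 1 Maff alone was called, and the call of Ikzf2 also ended without any 1 spleen library. With age in spleen Ikzf2 rose by 0.57 ± 0.15, and 2 fell, Bach2 and Maff (-1.86 ± 0.22). The difference of age effects of Maff was 4.06 ± 0.31, and that of Jund -0.83 ± 0.20, called only with both libraries of spleen and of young muscle. The difference for Bach2 was not called without any 1 spleen library (1.64 to 1.73), nor was the rise of Ikzf2 in spleen (0.48 to 0.67). Maff was also higher in aged muscle than in aged spleen, by 2.42 ± 0.22.

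Of 27 other transcription factor genes of T cells, all tested, 6 were higher and 8 lower in muscle than in spleen of young mice, and 4 and 7 in aged mice. Those with the smallest p were Tcf7 (-4.38 ± 0.21), Lef1 (-2.96 ± 0.19) and Foxp1 (-1.76 ± 0.14) in young mice, factors of naive T cells, and Tcf7 (-3.18 ± 0.19), Hopx (1.52 ± 0.15) and Foxp1 (-1.17 ± 0.14) in aged mice. With age in spleen 4 rose and 4 fell, led by Satb1 (-2.35 ± 0.17), Foxp1 (-1.22 ± 0.14) and Lef1 (-1.44 ± 0.17). With age in muscle 3 rose and 1 fell, led by Bhlhe40 (2.35 ± 0.27), Gfi1 (2.91 ± 0.47) and Tox (0.68 ± 0.14). The difference of age effects was higher for 5 and lower for 2, led by Satb1 (1.87 ± 0.23), Lef1 (1.79 ± 0.25) and Klf2 (1.27 ± 0.22). Without young muscle replicate 1 the counts were 7 and 8 for tissue in young mice and 2 and 0 for age in muscle, and without aged muscle replicate 2 they were 5 and 5 for tissue in aged mice and 3 and 1 for age in muscle. The call of Tox ended with any 1 spleen library or young muscle replicate 1 left out, and that of Klf2 with aged spleen replicate 2 or young spleen replicate 1 left out. Foxp3 was called in no comparison, with 0.70 ± 0.41 and 0.64 ± 0.40 for muscle over spleen.

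Genes of surface receptors and secreted products of effector Tregs, many of them reported targets of Batf, Irf4, Prdm1 or Maf, made a list of 18, of which 17 could be tested. In young muscle 13 were higher and 1 lower (median 2.29), led by Klrg1 (4.66 ± 0.21), Itgae (3.09 ± 0.17) and Ctla4 (2.29 ± 0.14). In aged muscle 10 were higher and 3 lower (median 0.85), led by Klrg1 (3.28 ± 0.19), Il1rl1 (3.55 ± 0.25) and Ctla4 (1.28 ± 0.14). With age in spleen 9 rose and none fell (median 0.89), led by Itgae (2.04 ± 0.17), Il10 (1.94 ± 0.19) and Tnfrsf4 (1.15 ± 0.15). With age in muscle 1 rose, Areg (1.19 ± 0.23), and 4 fell, among them Itgae (-1.0 ± 0.16) and Ctla4 (-0.81 ± 0.14). The difference of age effects was lower for 6 and higher for none (median -0.92), led by Itgae (-3.04 ± 0.23), Il10 (-2.68 ± 0.26) and Icos (-1.11 ± 0.21). Without young muscle replicate 1 the counts were 12 and 1 for tissue in young mice and 1 and 2 for age in muscle, and without aged muscle replicate 2 they were 10 and 2 for tissue in aged mice and 3 and 2 for age in muscle. With any 1 spleen library left out 5 or 6 rose with age in spleen and the difference was lower for 2 or 3, Icos no longer among them. The call of Areg ended without aged muscle replicate 1 (1.03). The list was drawn up with earlier results of these libraries known, so its direction is no independent evidence.

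Likeness of pattern was measured as the root-mean-square difference between 2 genes' log2 CPM over the 8 libraries, each centred on its own mean, among 7742 other genes whose mean log2 CPM was 4 or more. Among the 10 genes Batf and Maf were nearest to each other (0.158), and Prdm1 and Id2 likewise (0.295). Only 4 candidates were nearer to Batf than Maf was, and 8 were nearer to Maf than Batf was. The nearest genes were Dtx3 and Lamtor4 for Batf (0.10 and 0.14), March3 and Pitpnm1 for Maf (both 0.12), Glrx and Scpep1 for Irf4 (0.18 and 0.19), and Ern1 and Runx2 for Rora (0.17 and 0.18). For Nfil3 they were Cd44 and Per1 (0.09 and 0.12), for Prdm1 Ankrd6 and Neb (0.16 and 0.19), and for Id2 Stx11 and Osbpl3 (0.20 and 0.22). For Bcl6 they were Hsph1 and Pde7a (0.14 and 0.22), for Gata3 Ywhaq and Nfkb1 (0.08 and 0.09), and for Ikzf3 Thoc3 and Xpo6 (0.05 and 0.08). For comparison, the 10 genes' own root-mean-square spread ran from 0.15 for Gata3 to 1.14 for Irf4, so a small distance says least for Gata3 and Ikzf3, whose levels moved little. Bcl6 had no near neighbour among the other 9, the closest being Ikzf3 at 1.08.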

How the data were processed

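RNA was read in 8 Treg libraries, 2 in each of 4 groups. The authors deposited whole-number read counts per gene symbol with no scaling. Alignment and counting tools listed in the submitters' processing notes are HTSeq, SAMtools 0.1.19, Picard, TopHat and TopHat2, with the build mm10. Neither annotation nor strand setting is given in the sources used here. Per the labels' protocols, RNA was amplified by in vitro transcription and by PCR, so a count is of reads and not of molecules.

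In R 4.3.3, edgeR 4.0.16 kept genes by filterByExpr (14772), scaled by TMM and fitted 1 robust quasi-likelihood model with 4 group coefficients (4 residual degrees of freedom), tested two-sided with Benjamini-Hochberg adjustment over all tested genes. An SE is the log2 fold change over the square root of F. Logged CPM used a prior count of 2. Gene spans come from GENCODE M21 (GRCm38, which corresponds to mm10), counted from 1. Alternatives were DESeq2 1.42.0, other scalings, no filter, only the groups compared, a replicate block and each library left out, the last also for the lists, which was added after seeing the data. The fit was tested on simulated data with 200 changed genes per comparison. It recovered from 4.48% (difference of age effects) to 25.4% (age in muscle) of 2-fold changes, so many of that size would go uncalled. Of 8-fold changes it recovered 63.6% to 78.8%. Depth ranged from 1969982 to 4008622 counts per library.

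The 10 genes and the lists were chosen with earlier results of these data known. The text names the 10 genes, the 3 genes of smallest p in each list and comparison, 8 fixed relatives and, for likeness, the 2 nearest genes (leaving out predicted and clone-named genes, pseudogenes and receptor segments).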

Additional observations from a re-analysis of the deposited data

Results flagged for a closer look

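The difference of the age effects between muscle and spleen passed the test for 2 of the 10 genes. For Batf it was -1.30 on the log2 scale, with aged libraries higher in spleen and lower in muscle. For Maf it was -1.23, in the same directions. The muscle difference alone was called for neither gene. The call of Batf ended with each of the spleen libraries left out in turn. That of Maf ended without either aged spleen library or young spleen replicate 1. The other 8 genes did not pass, among them Irf4 and Nfil3, whose libraries had the same directions as those of Batf and Maf.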

How the results depend on the processing

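Over 690 recomputed values of the 10 genes, 616 kept their direction and side of the threshold, 51 lost a call, 10 gained one and 13 changed sign, and those 13 were uncalled before and after. Leaving out 1 library in turn, with the tested genes held, gave 6 to 8 called genes for tissue in young mice, 3 to 7 for tissue in aged mice, 0 to 2 for age in muscle, 0 to 5 for age in spleen and 0 to 3 for the difference of age effects. DESeq2 called 1 gene for age in muscle in place of 0, and dropping the filter gave 4 in place of 2 for the difference of age effects, adding Prdm1 and Id2. Sign changes for tissue in young mice were those of Gata3 with library-size scaling (0.081), DESeq2 size factors (0.00055), only the groups compared (0.032) and without young spleen replicate 1 (leave-one-out range -0.13 to 0.062), and of Ikzf3 with library-size scaling (0.034) and without young muscle replicate 1 (range -0.20 to 0.023). For tissue in aged mice Ikzf3 turned with no filter (-0.037) and without aged spleen replicate 1 or aged muscle replicate 1 (range -0.035 to 0.092). Prdm1 turned for age in muscle without young muscle replicate 1 (range -0.070 to 0.23), Bcl6 for age in spleen with library-size scaling (0.11) and without young spleen replicate 1 (range -0.15 to 0.047), and Ikzf3 for the difference of age effects without young muscle replicate 1 (range -0.0040 to 0.22). The cause of these changes was not tested. Library-size scaling moved the median of all genes by 0.11 for tissue in young mice, 0.12 for age in muscle and 0.17 for age in spleen, and the split over all genes for age in spleen from 307 higher and 320 lower to 489 and 236. All genes called for age in muscle numbered 298, against 748 with no filter, 49 with only the groups compared and 147 to 978 with 1 library left out. For age in spleen they numbered 627, against 1039, 1840 and 141 to 1046, and for the difference of age effects 372, against 670 with no filter and 137 to 646. For tissue in aged mice they numbered 2783, against 870 to 3922, and in young mice 3290, against 1444 to 3545. Groups share replicate numbers, but nothing says that equal numbers mark the same animals. Deviations from the group means of equally numbered libraries correlated across genes at -0.07 to 0.26, and the replicate block changed no call of the 10 genes (8, 7, 0, 5 and 2 called), while it gave 479 calls over all genes for age in muscle.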
